A study of Mus musculus with 14 samples.

Results

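The genes described here encode the proteins of the cytosolic ribosome, measured in mouse blood progenitors with and without Tet2. Members were all genes whose array annotation symbol names a ribosomal protein of the large (Rpl) or small (Rps) subunit, Rpsa, or a stalk protein, with Rps6 kinases and processed pseudogene symbols left out. One probe set annotated to a single gene stood for each gene. The rule found 50 of the 18194 genes measured: 22 large-subunit proteins, 21 small-subunit proteins, 6 paralogs or pseudogenes (Rpl22l1, Rpl39l, Rpl3l, Rpl7l1, Rps27l and Rps4l) and Rps19bp1, which binds Rps19 and is not a ribosomal protein. Another 29 ribosomal protein symbols appeared only on probe sets shared with other genes and are not members.

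The cytosolic ribosome translates nuclear messages. Its small subunit holds the message and decodes it, and its large subunit joins the amino acids, while the acidic stalk proteins Rplp0 and Rplp2 recruit elongation factors. Messages of these proteins are among the most abundant in growing cells, they start with a pyrimidine tract through which growth signals control their translation, and unassembled Rpl5 and Rpl11 bind Mdm2 and stabilise p53. In blood formation, loss of one copy of genes such as RPS19, RPL11 or RPS14 in humans impairs red cell production.

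Sorted progenitor populations and 1 cultured population were profiled on 14 arrays, 2 for each of 7 groups. Replated KO cells grew from Tet2-deficient LSK cells sorted for CD150 and plated 5 times in series, and no WT counterpart was analysed here. Sorted KO cells (Tet2 -/- Mx+) and sorted WT cells (Tet2+/+ Mx+), both on a mixed B6/129 background, were littermates, with deletion by pIC injection through the Mx transgene, an interferon-inducible driver of Cre. Both genotypes carried Mx, so the WT groups share it. LSK cells are lineage-negative, Kit and Sca1 positive stem and early progenitor cells, CMP are common myeloid progenitors, and GMP are the granulocyte and macrophage progenitors below them. LSK and CMP were taken 4 weeks after deletion, and no time was given for GMP. From each sample, 5 ng of total RNA was amplified before labelling. Nothing in the labels ties the arrays to different mice. The p-values then measure only the spread between these arrays, which may be technical.

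Several facts of the series touch the comparisons. Tet2 itself read 855 to 2376 on the 6 sorted KO arrays and 454 to 2045 on the 6 WT arrays, and since the labels do not name the exons removed, its probe set does not check the genotype. KO and WT therefore mean the libraries labelled so. Xist read 18.4 to 21.9 in replated cells, 4980.1 to 6634 in sorted KO cells and 18.7 to 29.7 in WT cells. Y-linked Eif2s3y read 2056 to 2083 in replated cells, 6.47 to 12.5 in sorted KO cells and 772 to 1203 in WT cells. Sex and genotype therefore cannot be told apart in the sorted cells. Nor can sex and replating be told apart where replated cells are compared with sorted KO cells. Replated cells had high levels of mast cell messages, and progenitor markers went both ways. The 7 mast cell and basophil markers measured summed to 61511 to 63929 in replated cells, against 452 to 3154 in sorted KO cells and 417 to 2490 in WT cells. Of these markers 7, 6 and 6 rose and 0, 0 and 1 fell in replated cells against KO LSK, CMP and GMP. Mcpt8 read 496 and 485 in replated cells, against 113 and 163 in KO LSK, 779 and 543 in KO CMP, and 857 and 1022 in KO GMP. The primary granule gene Mpo read 14.1 to 14.2 in replated cells, against 7229 to 12425 in sorted KO cells and 6472 to 12628 in WT cells. The receptor gene Kit read 4913 to 5568 in replated cells, against 1291 to 2497 in sorted KO cells and 1279 to 2600.1 in WT cells. Of the 9 population markers measured, 3, 2 and 2 rose and 3, 4 and 4 fell in replated cells against KO LSK, CMP and GMP. The part of cell type in the results below was not tested, and that of sex cannot be separated in the KO against WT and replated comparisons. In bulk RNA, fewer cells of a type and less RNA per cell cannot be told apart.

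Promoters of ribosomal protein genes carry short factor motifs, and 44 of the 50 members had a RefSeq promoter sequence (GRCm38.p6). The 7-letter core bound by Ets factors, CCGGAAG, occurred on either strand in 40.4% of the members' 52 promoters of 300 bases, against 8.86% of all 32851. The pyrimidine-rich CTTTCC occurred in 46.2% against 26.6%, the YY1 core AAGATGGC in 7.69% against 2.75%, and the letters TATAAA in 11.5% against 13.6%. Among subunit genes with a promoter, 5 of the 9 that fell in all 3 replated comparisons on the deposited scale and 14 of the other 29 held the Ets core. The 6 windows below run from 150 bases before the annotated start to 25 after it. They set genes lower in replated cells on that scale (Rplp0, Rpl35, Rpsa and Rps27) beside genes within 0.1 log2 of every sorted KO group. Both classes depend on that scale. Capitals mark any of these motifs on either strand. A match is only a string of letters and was not tested as a binding site.
Rplp0, chr5:115559317-115559491, plus strand: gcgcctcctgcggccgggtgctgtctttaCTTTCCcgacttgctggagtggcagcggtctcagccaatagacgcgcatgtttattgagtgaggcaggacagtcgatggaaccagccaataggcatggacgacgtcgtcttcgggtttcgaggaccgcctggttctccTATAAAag
Rpl35, chr2:39005107-39005281, minus strand: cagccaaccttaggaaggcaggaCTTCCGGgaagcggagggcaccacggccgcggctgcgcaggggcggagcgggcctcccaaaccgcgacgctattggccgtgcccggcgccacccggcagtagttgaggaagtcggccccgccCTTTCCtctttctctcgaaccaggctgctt
Rpsa, chr9:120127616-120127790, plus strand: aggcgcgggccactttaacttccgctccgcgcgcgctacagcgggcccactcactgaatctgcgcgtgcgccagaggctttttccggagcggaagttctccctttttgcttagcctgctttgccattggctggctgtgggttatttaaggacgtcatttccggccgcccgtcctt
Rps27, chr3:90213624-90213798, minus strand: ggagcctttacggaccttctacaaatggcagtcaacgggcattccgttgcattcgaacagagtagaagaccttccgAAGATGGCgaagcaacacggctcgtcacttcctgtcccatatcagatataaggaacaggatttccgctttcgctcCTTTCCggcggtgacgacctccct
Rps7, chr12:28635929-28636103, minus strand: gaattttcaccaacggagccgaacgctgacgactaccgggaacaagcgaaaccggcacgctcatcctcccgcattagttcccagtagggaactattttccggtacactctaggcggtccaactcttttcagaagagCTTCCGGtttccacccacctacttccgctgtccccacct
Rps3a1, chr3:86142644-86142818, minus strand: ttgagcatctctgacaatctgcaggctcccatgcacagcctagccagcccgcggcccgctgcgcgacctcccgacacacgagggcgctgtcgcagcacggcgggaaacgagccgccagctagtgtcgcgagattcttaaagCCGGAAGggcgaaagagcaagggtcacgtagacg

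No motif was found in the Rpsa window, and both Rps7 and Rps3a1 held the Ets core, as did Rpl35. Rps27 held the YY1 core, and Rplp0, Rpl35 and Rps27 each held CTTTCC. The letters TATAAA in the Rplp0 window lie after the annotated start.

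Most members were among the brightest features of the arrays. The chosen probe sets of 38 of the 50 members lay in the top 5% of all probe sets, with means from 11.31 to 13.85 on the log2 scale, where the highest value of any array was 14.34. These bright members repeated closely. Their median gap between the 2 arrays of a group was 0.015 to 0.068 log2, against 0.16 to 0.29 for all genes. Signals this near the top of the range may respond less than in proportion to RNA, which the files cannot show. The other 12 members were dimmer: Rps6, Rpl14, Rps25, Rps19bp1, Rps4l, Rps27, Rpl39, Rpl12, Rpl39l, Rpl37, Rpl3l and Rps16. Of these Rps16, Rpl37 and Rpl3l stayed under the background level on every array, Rpl39l passed it on 4 arrays and Rps4l on 13, and their values describe 1 probe set each. The rest passed it on every array, among them Rps27, Rpl39 and Rpl12 at mean log2 levels of 6.79, 6.21 and 5.94. Whether such dim probe sets report the full level of their message was not tested.

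**Figure D1:**
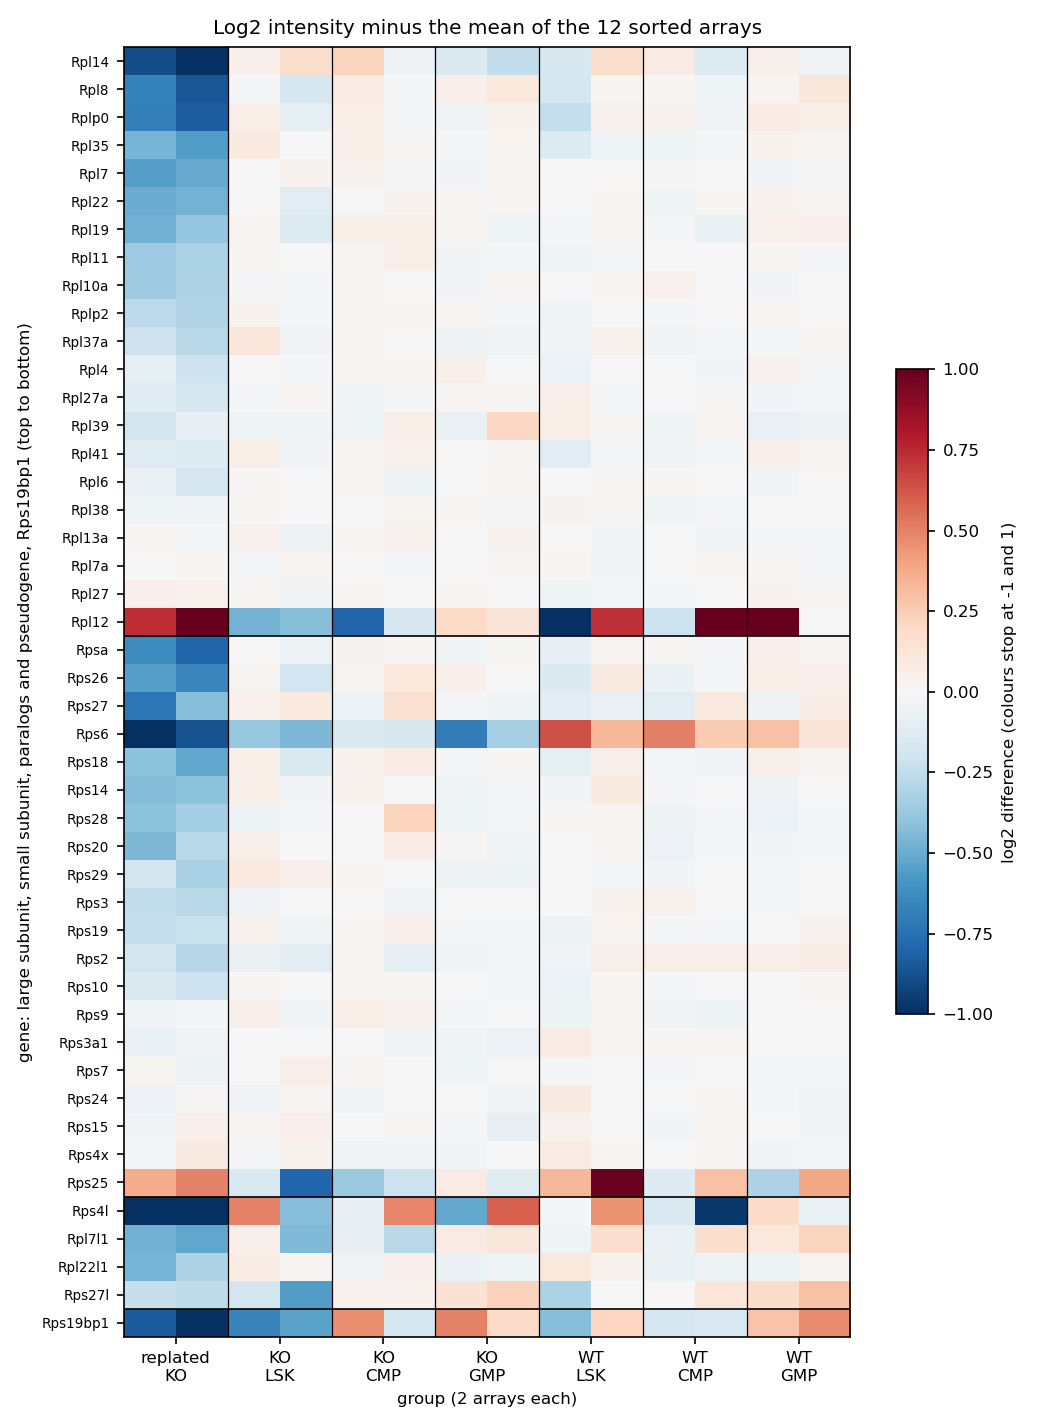
Log2 intensity of 46 members above background on at least 13 arrays (rows) on each of the 14 arrays (columns), minus the member's mean over the 12 sorted arrays. Blue rows in the first column pair mark members lower in replated cells on the deposited scale (a direction that turns for the members' median when arrays are centred on their median gene), and Rps6 separates the KO from the WT columns.

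Between sorted KO and WT cells, Rps6 was the single member whose level passed the test. Averaged over LSK, CMP and GMP, 1 of the 50 members fell and none rose in KO cells (limma, Benjamini-Hochberg adjusted p under 0.05), where 0.148% of all genes fell and 0.159% rose. The members' median log2 difference was 0.00, against 0.03 for all genes. For all 38 bright members, the 95% confidence interval of the averaged difference lay between -0.5 and 0.5, its outermost bounds being -0.42 and 0.21. Within LSK, CMP or GMP alone no member passed (background 0.264%, 0.121% and 0.0934%), and 2, 1 and 2 members had an unadjusted p under 0.05. No member passed the test for a KO effect that differed between populations (background 0.022%, 0.0055% and 0%), with 0, 1 and 0 members at an unadjusted p under 0.05. With 2 arrays a group, this does not show that the effects were equal.

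Rps6 is the small-subunit protein that S6 kinases phosphorylate on growth signals, and its chosen probe set was lower in KO cells. Its probe set read 1575 and 1506 in KO LSK against 3212 and 2589 in WT LSK, 1848 and 1832 in KO CMP against 2919 and 2448 in WT CMP, and 1272 and 1635 in KO GMP against 2513 and 2248 in WT GMP. The 6 KO arrays, at 1272 to 1848, lay below all 6 WT arrays, at 2248 to 3212, with no overlap, a pattern that 0.225% of all genes showed. The averaged log2 difference was -0.72 ± 0.10 (SE; limma, adjusted p = 0.0228). In the single populations it was -0.91 in LSK (adjusted p = 0.08), -0.54 in CMP (0.611) and -0.72 in GMP (0.599). Replated cells read 1008 and 1125, below every sorted array. The call was lost with only the KO and WT arrays in the fit (adjusted p = 0.056) and when any of 7 arrays was left out alone (adjusted p from 0.017 to 0.073 over all 14).

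Other probe sets for Rps6 gave differences of unequal size. A second single-gene probe set was dim, at 6.60 to 12.3 in KO and 12.04 to 28.3 in WT cells, and passed the background level on 3 arrays. Its averaged log2 difference was -1.05 (adjusted p = 0.157). A further 9 probe sets are annotated to Rps6 together with a pseudogene copy of it. Their averaged log2 differences ran from -0.15 to -0.01 with a median of -0.02, and on none were all KO arrays below all WT arrays. Their mean log2 levels ran from 5.54 to 13.91, against 10.87 for the chosen probe set, and the brightest differed by -0.01. Which of these probe sets report the Rps6 message was not tested.

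**Figure D2:**
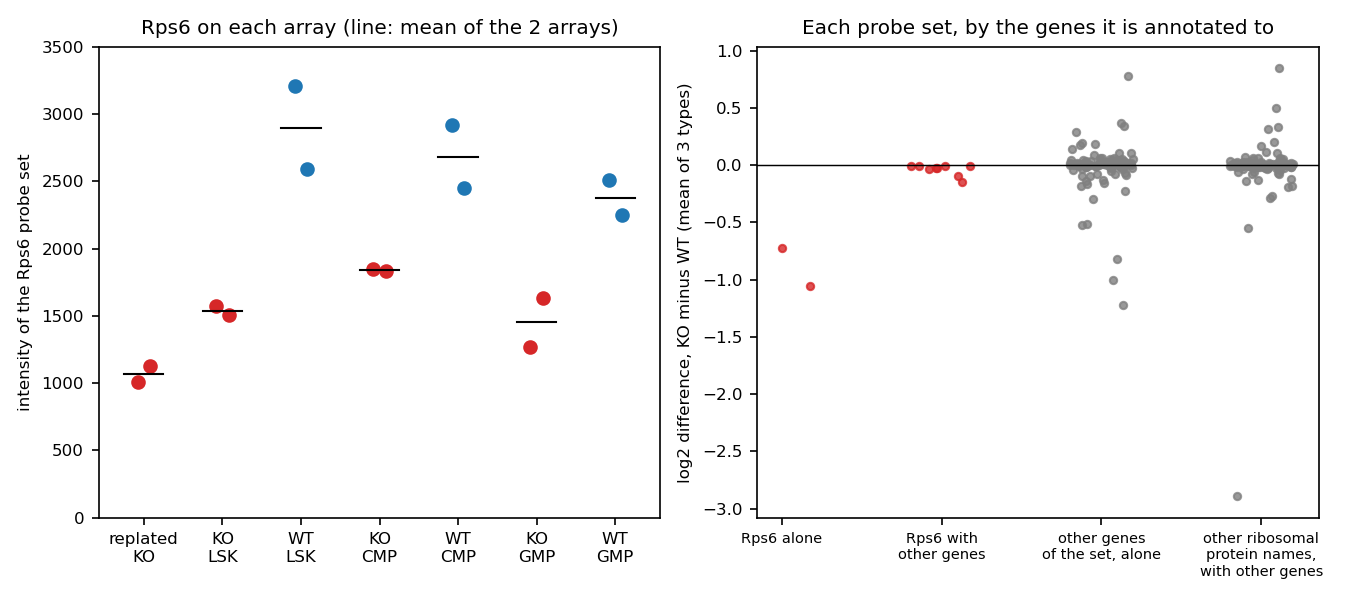
Left, intensity of the Rps6 probe set on each array by group, KO in red and WT in blue, with the 2-array mean as a line. Right, log2 difference of KO minus WT averaged over LSK, CMP and GMP for each probe set that names a ribosomal protein, split by whether it is annotated to Rps6 and to 1 gene or several; the 9 shared Rps6 probe sets sit between -0.15 and -0.01.

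Members with the next smallest p-values did not pass in the average. Rps25, a small-subunit protein used by some viral internal entry sites, read 766 and 493 in KO LSK against 1071 and 1688 in WT LSK, 659 and 735 in KO CMP against 781 and 1046 in WT CMP, and 903 and 784 in KO GMP against 687 and 1113 in WT GMP. The KO arrays lay below the WT arrays in LSK and CMP and overlapped them in GMP, with an averaged difference of -0.52 ± 0.18 (adjusted p = 0.408). Rpl39l, a paralog of Rpl39 best known from testis, differed by -1.22 ± 0.43 (adjusted p = 0.419), at intensities from 9.73 to 18.7 in KO and 9.81 to 93.5 in WT cells, mostly under background. Rpl7l1, a paralog of Rpl7 that acts in ribosome assembly, differed by -0.18 ± 0.10 (0.637).

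Members on the chromosome of Tet2 or on X gave small differences. On chromosome 3, which holds Tet2, Rpl22l1, Rps3a1 and Rps27 differed by 0.00, -0.04 and 0.06 log2 on average. On the X chromosome Rpl39 and Rps4x differed by 0.03 and -0.03. Neither set of values passed the test, and with the populations pooled the KO and WT arrays of all 5 overlapped. Within LSK, CMP and GMP taken singly, both KO arrays of Rps3a1 lay below both WT arrays (-0.05, -0.04 and -0.05). Rpl39 in LSK and Rps4x in CMP separated in the same direction, and Rps27 in LSK and Rpl22l1 in CMP in the other. No difference within a population passed the test. Rpl11, Rps14 and Rps19 differed by 0.02, -0.00 and 0.01, and the stalk genes Rplp0 and Rplp2 by 0.01 and 0.01, none of them called. No gene passed among 42 ribosome biogenesis factors, 30 translation factors, 76 mitochondrial ribosomal proteins, 15 growth-control genes and 5 p53 pathway genes tied to ribosomal stress.

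Within single populations, 2 arrays a group often separated without passing the test. In LSK, both KO arrays lay above both WT arrays for 7 of 50 members and below them for 8 (18.1% and 15.1% of all genes). In CMP they lay above for 21 members and below for 8 (22.9% and 15.1%), with a members' median of 0.03 against 0.04 for all genes. In GMP they lay above for 3 members and below for 20 (19.1% and 15.9%), with a median of -0.03 against 0.02. None of these differences passed the test, and differences of the bright members ran from -0.26 to 0.15 log2 over the 3 populations.

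Comparisons of the sorted WT populations gave no member past the test. Between WT CMP and LSK, GMP and CMP, and GMP and LSK, no member rose or fell (background 1.53%, 0.89% and 7.09%), and 0, 0 and 1 had an unadjusted p under 0.05. The members' medians were -0.01, 0.02 and 0.01 log2, against 0.03, 0.03 and 0.07 for all genes. Centring each array on its median gene moves all values by 0.12, 0.01 and 0.13, which turns the first median positive, and still calls no member. For 36 of the 38 bright members, the 95% interval of GMP minus LSK lay between -0.5 and 0.5.

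Rps27l, the p53-responsive paralog of Rps27, had the smallest p-value in the span from LSK to GMP. It read 6034 and 6486 in WT GMP, 5322 and 5756 in WT CMP and 4247 and 5291 in WT LSK. The GMP arrays lay above both LSK arrays, with a difference of 0.40 ± 0.16 (adjusted p = 0.189). Its partner Rps27 read 113 and 123 in WT GMP, 108 and 126 in WT CMP and 109 and 111 in WT LSK, a GMP minus LSK difference of 0.10. Intensities of Rps27 and Rps27l come from different probe sets, and whether they rank the messages by amount was not tested. Sorted KO cells gave Rps27l values of 5866 and 6217 in KO GMP, 5449 and 5444 in KO CMP and 4679 and 3604 in KO LSK.

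Single genes of the surrounding lists passed over the same span. Of the mitochondrial ribosomal proteins, which translate the mitochondrial genome, 6 of 76 rose in WT GMP over WT LSK and none fell, with a median of 0.48. Examples were Mrpl57 (1.26 ± 0.26, adjusted p = 0.0185) and Mrpl38 (0.98 ± 0.20, 0.0202). Of ribosome biogenesis factors 2 of 42 rose, with a median of 0.34: Ltv1, which exports the small subunit (1.30 ± 0.19, 0.00386), and Nop2, an rRNA methyltransferase (0.86 ± 0.20, 0.0347). These shares, like the background of 3.22% of all genes risen, are descriptions, and whether lists differ was not tested. Among 15 growth-control genes, Mtor rose by 1.16 ± 0.29 (0.0424) and Mycn fell by 2.80 ± 0.27 (0.000481). Of 30 translation factors none passed, with a median of 0.05.

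Replated KO cells had lower levels of many ribosomal proteins than sorted KO cells on the deposited scale, where centring each array on its median gene turns the members' median positive. On the deposited scale 18, 20 and 17 of the 50 members fell against KO LSK, CMP and GMP and none rose (limma, adjusted p under 0.05), where 14.2%, 14.1% and 15.2% of all genes fell and 10.8%, 10.3% and 10.2% rose. The members' medians were -0.25, -0.26 and -0.21 log2, against 0.01, -0.07 and -0.06 for all genes. The 3 comparisons share the 2 replated arrays and are not independent. Fallen in all of them were 14 members, 13 of them subunit proteins. Both replated arrays lay below all 12 sorted arrays for 33 members (16.4% of all genes) and above them for 1, Rpl27 (12.9% of all genes).

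The scaling matters here. The median gene read lower on the replated arrays, so that centring on it raises every difference by 0.40, 0.29 and 0.32 log2 and moves the medians to 0.15, 0.02 and 0.11. Set against the all-gene median, which is then 0.41, 0.21 and 0.25, the members' medians were -0.26, -0.19 and -0.15 relative to it under either scaling. After centring, 9 members were called higher and 2 lower against KO LSK, 6 lower against KO CMP and 3 lower against KO GMP. Rps4l stayed lower in all 3, Rpl14 in the first and the second, and Rpl8 and Rps19bp1 in the second and the third.

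**Figure D3:**
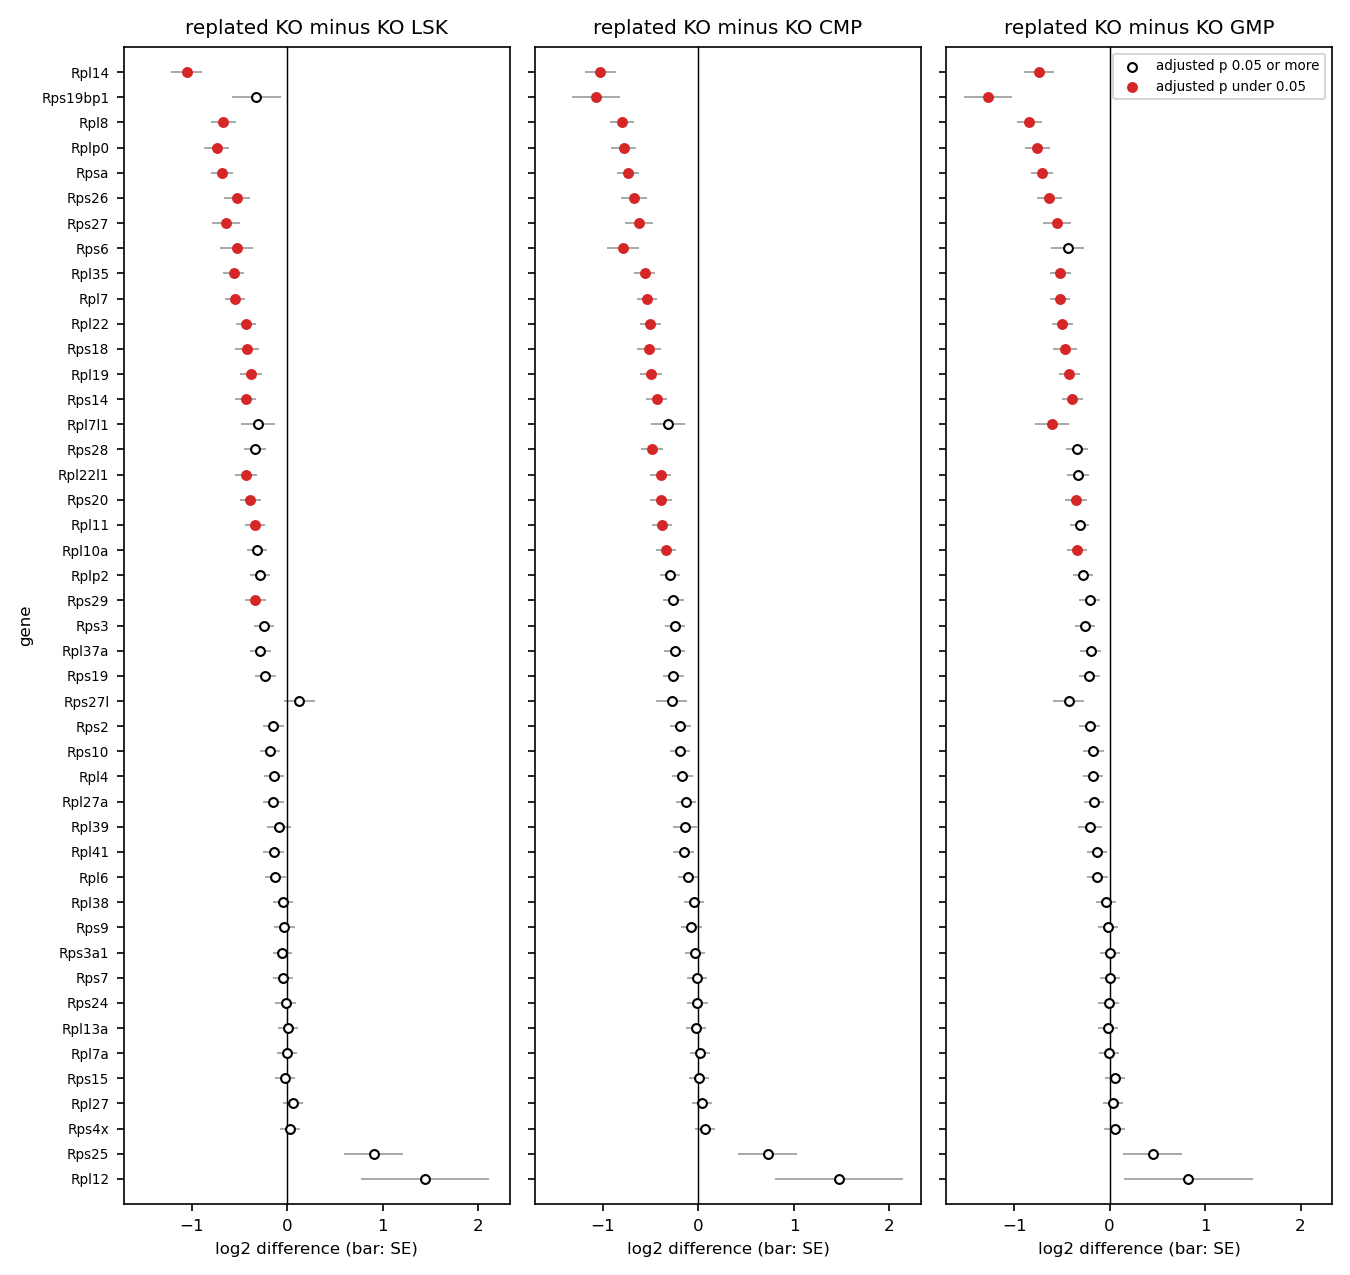
Log2 difference (point) with its standard error (bar) of replated KO cells minus KO LSK, CMP and GMP for the 45 members above background on all arrays, ordered by their mean difference; red points passed the test. Subunit genes run from Rpl14, near -1, through a group at 0 that holds Rpl7a, Rps24 and Rps7, to Rps25 and Rpl12, which lie above 0 and did not pass; centring on the median gene moves every point of a panel to the right by 0.40, 0.29 or 0.32, which turns the members' median positive.

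Among large-subunit proteins 8, 9 and 8 of 22 fell against KO LSK, CMP and GMP. Rpl14 read 914 and 848 in replated cells, against 1749.8 and 1911 in KO LSK, 1971 and 1633 in KO CMP, and 1525 and 1419 in KO GMP. Both replated arrays were below every sorted one, with log2 differences of -1.05 ± 0.16 (adjusted p = 0.00105) against KO LSK, -1.03 ± 0.16 (0.00126) against KO CMP and -0.74 ± 0.16 (0.00741) against KO GMP (SE). Rpl8, which sits at the peptidyl transferase centre, read 4441 and 3930 in replated cells, against 7019 and 6305 in KO LSK, 7526 and 7037 in KO CMP, and 7367 and 7617 in KO GMP, with log2 differences of -0.67, -0.80 and -0.84. Rpl35, at the exit of the nascent chain, read 9164 and 8599 in replated cells, against 13542 and 12659.8 in KO LSK, 13277 and 12931 in KO CMP, and 12546 and 12825 in KO GMP, with differences of -0.56, -0.56 and -0.51. Replated and sorted arrays did not overlap for either gene. Differences of Rpl7 were -0.55, -0.53 and -0.52, of Rpl22 -0.43, -0.50 and -0.49 and of Rpl19 -0.38, -0.50 and -0.42, all called. With single arrays left out, the Rpl19 call was lost against KO LSK for 9 of 14 arrays, against KO CMP for 1 and against KO GMP for 4, the Rpl22 call against KO LSK for 3, the Rpl14 call against KO GMP for 2 and the Rpl35 call against KO GMP for 1. Rpl11, one of the Mdm2-binding proteins, fell against KO LSK (-0.34 ± 0.10, adjusted p = 0.0398) and CMP (-0.39 ± 0.10, 0.0236), and its difference from GMP was -0.31 (0.0544). The Rpl11 call was lost against KO LSK for 12 of 14 arrays left out alone and against KO CMP for 4.

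The stalk proteins gave differences of unequal size. Rplp0, which anchors the stalk to the large subunit, read 4516 and 4084 in replated cells, against 7595 and 6784 in KO LSK, 7601 and 7197 in KO CMP, and 7083 and 7433 in KO GMP. It gave log2 differences of -0.74 ± 0.13 (adjusted p = 0.00304) against KO LSK, -0.78 ± 0.13 (0.00223) against KO CMP and -0.76 ± 0.13 (0.00258) against KO GMP (SE). Rplp2, one of the acidic proteins it carries, read 12644 and 12332 in replated cells, against 15524 and 14950 in KO LSK, 15321 and 15384 in KO CMP, and 15271 and 15068 in KO GMP. Replated arrays were lower for Rplp2 too, at differences of -0.29, -0.30 and -0.28 that did not pass (adjusted p = 0.0778, 0.0694 and 0.0838). Whether the 2 genes differ was not tested.

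Among small-subunit proteins 8, 8 and 6 of 21 fell. Rpsa, the laminin receptor precursor that sits near the message exit, read 8695 and 7713 in replated cells, against 13469 and 12863 in KO LSK, 13739.5 and 13647 in KO CMP, and 13170.2 and 13526 in KO GMP. It gave log2 differences of -0.68 ± 0.11 (adjusted p = 0.00193) against KO LSK, -0.74 ± 0.11 (0.00122) against KO CMP and -0.70 ± 0.11 (0.00154) against KO GMP (SE), with no overlap. Rps26, another protein of the message exit channel, had differences of -0.53, -0.67 and -0.63, Rps18 of -0.42, -0.52 and -0.47, Rps14 of -0.44, -0.44 and -0.39 and Rps20 of -0.39, -0.40 and -0.36, all called. Rps27 read 71.1 and 87.3 in replated cells, against 121 and 126 in KO LSK, 113 and 131 in KO CMP, and 117 and 114 in KO GMP, with differences of -0.65, -0.62 and -0.55, all called. Calls of small-subunit genes were often lost when 1 of the 14 arrays was left out. Against KO LSK, CMP and GMP, this held for 8, 5 and 14 arrays for Rps20, for 7, 2 and 4 for Rps18, for 3, 4 and 4 for Rps14, for 3, 0 and 1 for Rps26 and for 1, 2 and 3 for Rps27. Rps19, mutated in human Diamond-Blackfan anaemia, differed by -0.23, -0.26 and -0.21 and did not pass. The chosen probe set of Rps6 fell further in replated cells against KO LSK (-0.53 ± 0.17, adjusted p = 0.0494) and CMP (-0.79 ± 0.17, 0.00819), and its difference from GMP was -0.44 (0.1). The mean of the Rps6 single-gene probe sets was higher instead, by 0.30 against KO LSK and 0.05 against KO CMP. The dim second probe set read 12.7 and 22.4 in replated cells, against 8.96 and 6.60 in KO LSK and 9.71 and 8.54 in KO CMP. The Rps6 call was lost against KO LSK for 10 of 14 arrays left out alone and against KO CMP for 1.

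For 10 of the 38 bright members, the replated mean lay within 0.1 log2 of the mean of each sorted KO group on the deposited scale. After centring on the median gene, 6 of these 10 were called higher against KO LSK (Rpl7a, Rps24, Rpl13a, Rps9, Rpl27 and Rps4x). Rpl7a read 12369 and 12559 in replated cells, against 12297 and 12622 in KO LSK, 12429 and 12242 in KO CMP, and 12448 and 12524 in KO GMP, differences of 0.00, 0.01 and -0.00. Rps24, another Diamond-Blackfan anaemia gene, read 10316 and 10787 in replated cells, against 10467 and 10919 in KO LSK, 10539.9 and 10742 in KO CMP, and 10726 and 10527 in KO GMP, differences of -0.02, -0.01 and -0.01. Rps7, whose product also binds Mdm2, read 9819 and 9302 in replated cells, against 9671 and 10083 in KO LSK, 9677 and 9649.5 in KO CMP, and 9357 and 9660.1 in KO GMP, differences of -0.05, -0.02 and 0.01. Replated and sorted arrays overlapped for each of these. The rest of the group were Rps3a1, Rpl13a, Rps9, Rps15, Rpl27, Rps4x and Rpl38. Bright members were not equally bright, and the 19 brighter ones had a median difference, averaged over the 3 comparisons, of -0.15, against -0.35 for the 19 dimmer ones. Brightness here was the mean over all 14 arrays, so the replated arrays enter both the split and the difference. What signal level contributes to this was not tested.

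Paralogs and the pseudogene made up 2 of the fallen members in each comparison, of 6. Rps4l, a transcribed pseudogene in RefSeq, read 22.5 and 9.28 in replated cells, against 302 and 159.5 in KO LSK, 203 and 302 in KO CMP, and 151 and 325 in KO GMP. Only 1 of the 2 replated arrays was above background, so the fitted differences of -3.93, -4.10 and -3.94 rest on values at the background level. Its X-linked partner Rps4x read 9288 and 10013 in replated cells, against 9308 and 9612 in KO LSK, 9181 and 9225 in KO CMP, and 9243 and 9349 in KO GMP and differed by 0.03, 0.07 and 0.05. Rpl22l1, which can stand in for Rpl22 in the ribosome, read 5354 and 5972 in replated cells, against 7776 and 7518 in KO LSK, 7238 and 7666 in KO CMP, and 7076 and 7169.7 in KO GMP, with differences of -0.44, -0.40 and -0.33, the first and second called, which were lost for 2 and 6 of the arrays left out alone. Rpl22 itself read 9436 and 9591 in replated cells, against 13351 and 12355 in KO LSK, 13378 and 13616 in KO CMP, and 13407 and 13399 in KO GMP, and its differences of -0.43, -0.50 and -0.49 were all called. Thus both partners were lower in replated cells on the deposited scale. Rpl7l1 differed by -0.31, -0.32 and -0.60, the third called and lost for 4 of the arrays left out alone, and Rpl7 by -0.55, -0.53 and -0.52. Rps27l read 4513 and 4451 in replated cells, against 4679 and 3604 in KO LSK, 5449 and 5444 in KO CMP, and 5866 and 6217 in KO GMP, within the sorted range. It was not called on the deposited scale, while after centring it was called higher against KO LSK (0.53). Rps19bp1, which is no ribosomal protein, read 379 and 330.5 in replated cells, against 424 and 464 in KO LSK, 930.1 and 598 in KO CMP, and 949 and 772 in KO GMP, called against CMP and GMP (-0.33, -1.08 and -1.27), the call against CMP being lost for 2 of the arrays left out alone. Rpl12 and Rps25 were higher in replated cells by 1.44, 1.47 and 0.83 and by 0.90, 0.72 and 0.45, and neither passed on the deposited scale, while after centring Rps25 was called against KO LSK (1.31).

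Other probe sets of the same genes mostly ran the same way. Beside the chosen ones, 47 single-gene probe sets of 22 members were above background on all arrays. Against KO GMP 39 of the 47 were lower in replated cells on the deposited scale, of which 15 were called, and 1 was called higher. Among all 45101 probe sets, 8553 were called in this comparison in either direction. They were lower than the chosen probe set in 29 cases. The 2 other Rpl22 probe sets read 6577 to 6892 and 388 to 413 in replated cells, against 9370.3 to 11606 and 2099.8 to 3444 in sorted KO cells. A dimmer Rps20 probe set read 56.4 and 132 in replated cells, against 512 to 835 in sorted KO cells, a far wider gap than the chosen set of 7768 and 8775 against 10400.4 to 11149. The size of a difference therefore depended on the probe set.

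Lists around the ribosome were lower in the same arrays. Of 76 mitochondrial ribosomal proteins 26, 43 and 58 fell against KO LSK, CMP and GMP and 1 rose, with medians of -0.68, -0.91 and -1.18, which stay negative after centring. Mrps5 read 104 and 70.7 in replated cells, against 542 and 779 in KO LSK, 825 and 1023 in KO CMP, and 661 and 843 in KO GMP. Of 42 ribosome biogenesis factors 21, 23 and 28 fell and none rose, with medians of -0.65, -0.87 and -1.06, also negative after centring. The box C/D methyltransferase Fbl read 1839 and 1633 in replated cells, against 5394 and 5732 in KO LSK, 6608 and 5220.3 in KO CMP, and 5788 and 6068 in KO GMP, and Dkc1, the pseudouridine synthase, differed by -1.27, -1.29 and -1.31. Of 30 translation factors 10, 10 and 15 fell and 1, 1 and 0 rose, with medians of -0.35, -0.35 and -0.41, the first of which turns to 0.06 after centring. The initiation factor subunits Eif3k (-0.89, -0.96 and -0.94) and Eif3l (-0.95, -1.30 and -1.37) fell in all 3. These counts stand beside the background of 14.1% to 15.2% fallen, and whether the lists differ from it or from the members was not tested. Fau, a small-subunit protein whose symbol the rule misses, differed by -0.14, -0.12 and -0.11 and was not called.

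Growth-control genes gave mixed results and the p53 targets were higher. Myc, the factor that drives ribosome synthesis, read 680.3 and 806 in replated cells, against 2416 and 2602 in KO LSK, 2772 and 2733 in KO CMP, and 2179.8 and 2303 in KO GMP, with differences of -1.76, -1.89 and -1.60, all called. Mycn fell against KO LSK (-1.55) and rose against KO GMP (1.84). In all, 1, 1 and 1 of the 15 growth-control genes rose and 3, 2 and 3 fell, beside 10.2% to 10.8% risen and 14.1% to 15.2% fallen among all genes, with medians of -0.14, -0.19 and -0.16. All 5 measured genes of the ribosomal stress list rose in all 3 comparisons, with medians of 2.79, 2.79 and 3.04. Cdkn1a, the p53-induced cell cycle inhibitor, read 1607 and 1525 in replated cells, against 95.5 and 144 in KO LSK, 100.3 and 155 in KO CMP, and 113 and 134 in KO GMP. Mdm2, the ligase held by free ribosomal proteins, rose by 0.58, 0.72 and 0.63. Whether these changes bear on the ribosomal proteins was not tested. Over the 7 group means, the 5 genes outside the set with the profile most like the members' mean were Peli2, Snapin, Dtymk, Akip1 and Rsl24d1, with Pearson's r of 0.991, 0.990, 0.988, 0.988 and 0.988, a description that rests on the replated group standing apart. That mean weighs all 50 members alike, those under background included. Snapin averaged 2841 in replated cells, against 4324 to 4498 in sorted KO cells and 4717 to 4985 in WT cells.

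**Figure D4:**
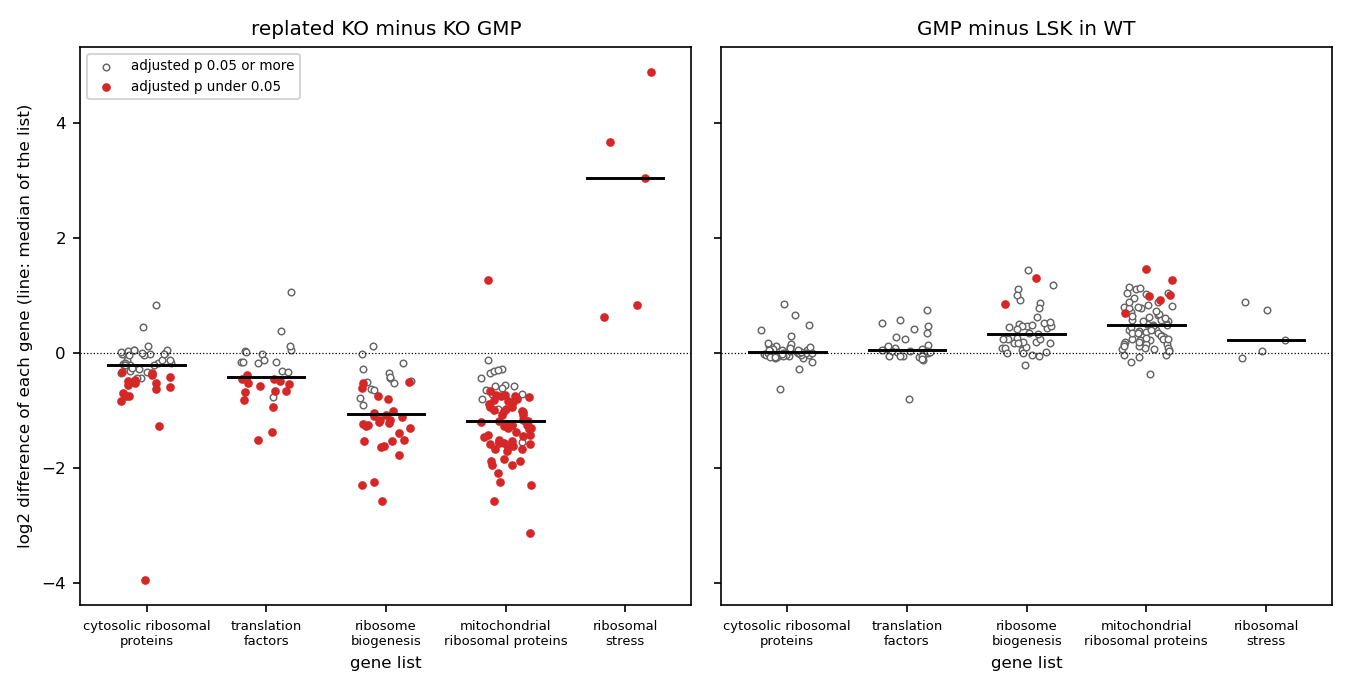
Log2 difference of each gene (point) by gene list, with the list's median as a line and red for genes that passed the test. Left, replated KO minus KO GMP, where medians run from -0.21 for the members to -1.18 for mitochondrial ribosomal proteins and 3.04 for the ribosomal stress list, and where centring on the median gene adds 0.32 to every point and turns the members' median positive; right, WT GMP minus WT LSK, where the members' median is 0.01.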

How the data were processed

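Total RNA from 14 samples was hybridised to mouse expression arrays. The authors deposited linear probe-set intensities. Per the submitters' processing notes these came from RMA, which corrects background, normalizes between arrays and summarises probes. Neither its version nor the arrays it was run on are given here. Array medians were 31.2 to 33.0. Precision is limited by how many arrays there are.

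Intensities were log2-transformed. Probe sets were named by the platform annotation, of which 34958 carried 1 gene, 932 several and 9211 were not listed. The probe set with the highest mean stood for each of 18194 genes, and those assigned to several genes were left out. The background level of each array was taken from 27 bacterial control probe sets and lay at intensities of 20.8 to 27.8. A linear model over 7 groups was fitted to all genes with limma 3.58.1 in R 4.3.3 (lmFit, eBayes), with p-values adjusted over all genes by the Benjamini-Hochberg method and a threshold of 0.05. On simulated data for 18194 genes (KO against WT GMP), it recovered 28 of 100 changes of 1 log2 unit and 83 of 100 changes of 2, with 6 false calls.

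Named genes were, for each comparison, the members past the threshold with the largest differences, those with the smallest p where none passed, the paralog pairs and members of chromosome X and chromosome 3, and up to 3 called genes of each surrounding list. The members and lists were chosen with earlier results of these data known. Alternatives tried were other normalizations, filters, offsets, probe-set rules and priors, a replicate block, and each array left out. Replicate numbers were not taken as pairs: correlations of same-numbered deviations ran from -0.10 to 0.10 over 21 pairs of groups. These correlations cannot show whether same-numbered samples share an origin.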

Additional observations from a re-analysis of the deposited data

How the results depend on the processing

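Fallen members against KO LSK, CMP and GMP numbered 18, 20 and 17. With only the arrays of the groups compared, 3, 10 and 12 members were called (2, 8 and 11 lower), with fewer arrays to estimate the spread. Centring on the median gene called 11 (9 higher, 2 lower), 6 and 3. The trended robust prior called 26, 29 and 30. Leaving out each array gave 7 to 18, 11 to 20 and 8 to 16 calls. All 216 probe sets naming a ribosomal protein, chosen after seeing the data, gave 44, 52 and 44 calls (43, 51 and 41 lower). Of all 45101 probe sets, 8565, 8265 and 8553 were called in either direction. The 110 probe sets shared with other genes gave 14, 14 and 11 lower and 1, 1 and 2 higher. Against KO LSK, centring turned Rpl11 (0.0611), Rpl19 (0.0233), Rps20 (0.0156) and Rps29 (0.0683) positive, and the mean of all probe sets turned Rps6 positive against KO LSK (0.3003) and CMP (0.0496). Averaged over populations, the single KO minus WT call was lost with only the arrays compared (0 calls), leaving out each array gave 0 to 1, and all 216 probe sets gave 2. In LSK leaving out each array gave 0 to 1 and all probe sets 1, and WT GMP minus LSK gave 1 with all probe sets. The replicate block gave 15, 19 and 15 calls in replated cells, kept Rps6 at an adjusted p of 0.0408 and changed no other count; the cause of these changes was not tested.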

Other observations

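Among the 110 probe sets annotated to a ribosomal protein together with other genes, 1 stood far from the rest. Probe set 1453752_at, assigned to Rpl17 with pseudogene copies and a predicted gene, and singled out after its values were seen, read 1290.3 and 1288 in replated cells. In sorted cells it read 188 and 128 in KO LSK against 2110.1 and 1164 in WT LSK, 166 and 433 in KO CMP against 2054 and 1484 in WT CMP, and 262 and 262 in KO GMP against 2000.1 and 1323 in WT GMP. All 6 KO arrays lay below all 6 WT arrays, with an averaged log2 difference of -2.89, while the other 109 ran from -0.55 to 0.85. The replated arrays lay within the range of the WT arrays for this probe set. Which of its genes the probe set reports was not tested.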
